A study of Homo sapiens with 8 samples.

Results

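A549 cells carrying a short hairpin RNA (shRNA) against AXL were compared with A549 cells carrying a control shRNA. The comparison uses 4 of the 8 libraries in the series, 2 per group, and they were chosen by their labels alone. A549 is an established human lung adenocarcinoma line, and every library of the series comes from it. The AXL shRNA libraries are labelled P15 and P3, and the control shRNA libraries carry the same numbers, so each AXL shRNA culture was set beside the control shRNA culture of its own number. The labels call the replicates biological but do not say what the P number stands for. The p-values set each change against the spread between cultures of the same group, estimated over all 8 libraries. The main test does not use the pairing by P number, which entered as a block in an alternative fit. The sources used here do not give the hairpin sequences, the number of hairpins or clones, or the time after introduction. The other 4 libraries are plain A549 controls (P17 and P4) and cells given 40 nM of the AXL inhibitor TP-0903. They entered the fit for the estimate of spread, and the plain controls are quoted as a second reference level.

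AXL is a receptor tyrosine kinase of the TAM family, which binds the ligand GAS6 and signals to survival, migration and inflammatory programs. In lung cancer cells it is known for its link to a mesenchymal state and to drug tolerance. A hairpin RNA is processed into a small RNA that pairs with its target transcript and lowers it, and such small RNAs are also known to lower other transcripts that match their seed.

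Total expected counts per library ran from 30067011 to 44217023. The epithelial markers KRT8, KRT18, KRT19, CDH1 and EPCAM were read in every library, and CDKN2A and CDKN2B, whose locus is deleted in A549, were at 0 in every one. The summed epithelial markers stood at 5580 and 4670 CPM (counts per 1000000 of the scaled library) under the control hairpin and at 21000 and 17000 CPM under the AXL hairpin, and 4 of the 5 were called higher. Of 8 fibroblast markers 5 were tested and 2 (COL1A1 and LUM) were called higher, with a summed level of 18.7 and 18.8 CPM against 33.9 and 61.5 CPM. Of 6 leukocyte markers 1 was tested, CD14, which was lower, and MS4A1 was at 0 in all 4 libraries. The 4 endothelial markers summed to 2.73 and 0.329 against 9.87 and 3.15 CPM, with no call, and KDR was at 0 in all 4. Of 3 globin genes, HBA1 alone was called, from 0 in both control shRNA libraries to 0.634 and 0.752 CPM. The part of these markers in the results was not tested, and in bulk RNA fewer cells of a type and less RNA per cell cannot be told apart.

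AXL itself was lower with its hairpin in both cultures, though not by the same share. In P15 it went from 85.1 CPM under the control hairpin to 55.4 CPM, and in P3 from 139 to 63.0 CPM. That left 65.1% of the transcript in P15 and 45.1% in P3. The groups did not overlap, but the plain controls stood at 216 (P17) and 105 CPM (P4), so AXL varied between untreated cultures about as widely. The log2 fold change was -0.92 (SE 0.42, adjusted p = 0.12 in edgeR's quasi-likelihood test). With the P number as a block it was -0.89 (adjusted p = 8.58e-04), and with the 4 shRNA libraries alone it was -0.92 (adjusted p = 0.0481).

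Changes with the AXL hairpin were broad and covered rises and falls about equally on the CPM scale. Of 17676 genes tested, 6627 were called at an adjusted p under 0.05 (37.5% of those tested), 3275 higher (18.5%) and 3352 lower (19.0%). The ratio of AXL shRNA to control shRNA was also taken within P15 and within P3, on CPM + 0.5, where each pair has 1 library a side and no test. Of the called genes, 1048 were higher by at least 2-fold in both (5.93% of genes tested) and 1008 were lower by at least 2-fold in both (5.7%). Another 1361 called genes passed 2-fold in 1 culture, and 3210 in neither. At 4-fold in both cultures, 211 genes were higher and 84 lower. Of the 11320 genes averaging 5 CPM or more, 87.0% had the same sign in both pairs. The ratios correlated across these genes at r = 0.911, given as a description, since the pairs share no library but genes are not independent.

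**Figure D1:**
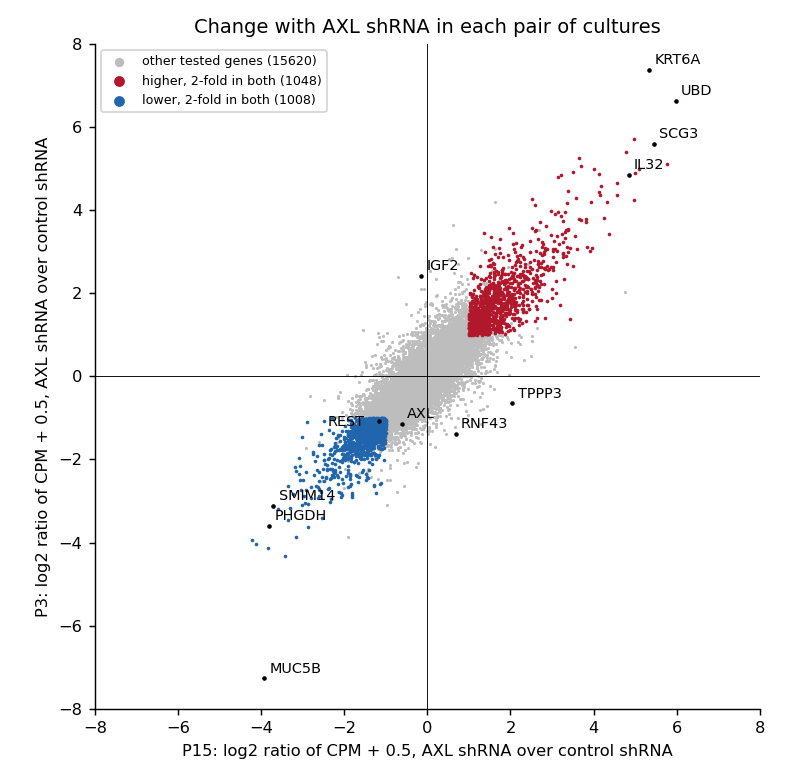
Log2 ratio of CPM + 0.5 between AXL shRNA and control shRNA in P15 (horizontal axis) and in P3 (vertical axis), 1 point per tested gene. The 1048 genes higher by 2-fold or more in both cultures are red and the 1008 lower ones blue, and most of the other genes lie along the same diagonal, with RNF43, TPPP3 and IGF2 among those off it.

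The plain control cultures are quoted for some of the genes below. They differ in P number and carry no hairpin, so they give a level and not a test. Scaled to length-normalized transcript units (TPM) in place of CPM, the median of all tested genes moved from -0.01 to -0.15 and the calls split into 2008 higher and 4404 lower.

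The largest rises in both cultures were in genes that A549 cells with the control hairpin barely expressed. The genes in question have varied known roles. UBD, a ubiquitin-like protein induced by inflammatory cytokines, went from 0.215 CPM under the control hairpin to 44.6 CPM in P15, and from 0 to 49.2 CPM in P3. A count of 0 in that P3 library allows a level of up to 0.0898 CPM. UBD lies on the minus strand of chromosome 6 at 29555515 to 29559925 (GRCh38), and the plus-strand gene OR2I1P, at 29550407 to 29557721, overlaps it. OR2I1P, an olfactory receptor gene, moved from 0.154 and 0 to 19.98 and 25.7 CPM. Since no source used here says that strand was counted, reads of these overlapping genes cannot be told apart.

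IL32, a proinflammatory cytokine, was the most abundant of the 12 largest rises, going from 5.9 and 6.16 CPM (P15, P3) under the control hairpin to 183 and 192 CPM (log2 fold change 4.96, SE 0.51, adjusted p = 7.81e-04). IL7R, the interleukin 7 receptor chain, went from 0.431 and 0.12 to 21.4 and 12.2 CPM. OLR1, a scavenger receptor for oxidized lipoprotein, went from 0.246 and 0.0898 to 23.2 and 17 CPM. In these 3 genes each AXL shRNA library stood far above every control library, the plain controls at 11.0 CPM or less included.

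KRT6A, a keratin of stressed and wounded epithelium, went from 0.461 and 0.0599 to 38.5 and 93.0 CPM, with the P3 culture the higher. It has near-identical copies, so its share of reads is uncertain. UGT1A6, an enzyme that conjugates glucuronic acid to drugs and other compounds, went from 2.03 and 1.35 to 68.5 and 77.1 CPM (log2 fold change 5.43, SE 0.33, adjusted p = 3.15e-04). The UGT1A genes share their last exons, so which of them the reads came from is uncertain. The other 5 of the 12, SCG3, RUNDC3A, AP3B2, CHGA and CHRNB2, are genes of neurons and endocrine cells and are described below.

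**Figure D2:**
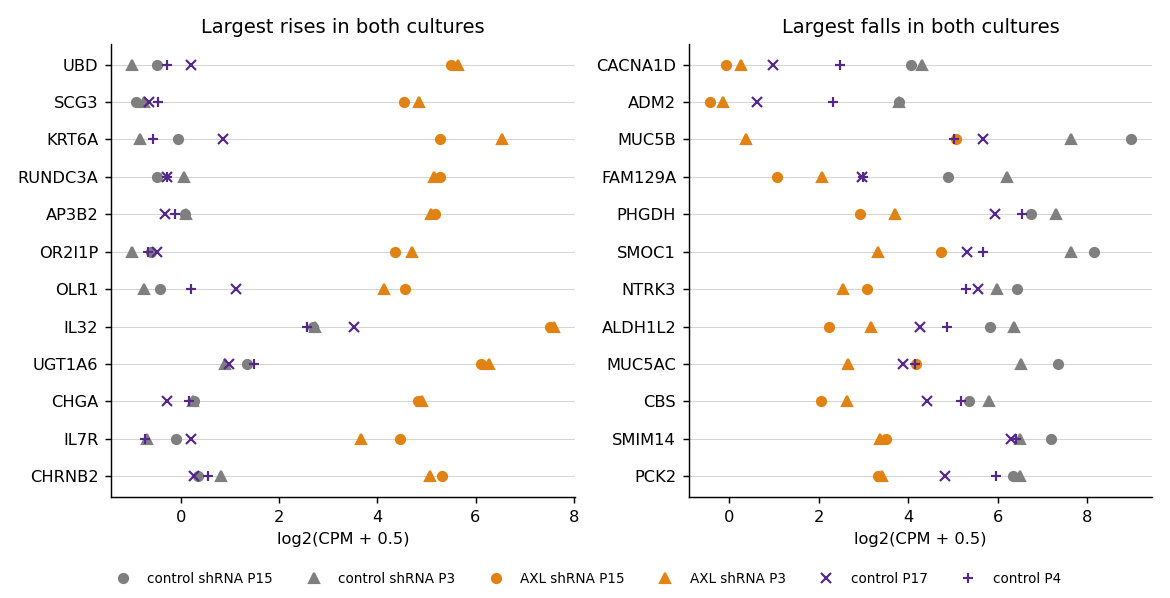
Level of the 12 genes that rose most and the 12 that fell most in both cultures, as log2(CPM + 0.5), 1 symbol per library. With AXL shRNA (orange) every rise stands clear of all control libraries, while for the falls other than MUC5B and MUC5AC both plain controls lie between the hairpin groups.

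The largest falls were in serine and one-carbon enzymes, in gel-forming mucins and in a few secreted or signaling proteins. PHGDH, the first enzyme of serine synthesis, went from 107 and 158 CPM to 7.15 and 12.6 CPM (log2 fold change -3.74, SE 0.39, adjusted p = 8.08e-04). ALDH1L2, a mitochondrial folate enzyme, went from 56.8 and 81.7 to 4.23 and 8.46 CPM. CBS, which joins homocysteine and serine, went from 40.3 and 55.2 to 3.62 and 5.75 CPM. PCK2, the mitochondrial phosphoenolpyruvate carboxykinase, went from 80.6 and 90.6 to 9.51 and 10.1 CPM. In all 4 of these enzymes both AXL shRNA cultures lay below every control, and the control hairpin cultures lay above both plain controls, as with ALDH1L2 at 18.6 and 28.7 CPM and PCK2 at 27.9 and 62.2 CPM in plain controls.

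NTRK3, the receptor kinase for neurotrophin 3, went from 86.4 and 63.4 to 7.97 and 5.31 CPM (-3.50, SE 0.32, adjusted p = 5.68e-04). SMIM14, a small membrane protein of the endoplasmic reticulum, went from 147 and 89.6 to 10.8 and 9.92 CPM (-3.51, SE 0.26, adjusted p = 3.80e-04). The plain controls held 46.8 and 38.5 CPM of NTRK3 and 78.6 and 84.6 CPM of SMIM14, above the AXL shRNA cultures and below the control hairpin cultures.

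The control hairpin cultures stood above both plain controls in all 12 of the largest falls, so part of each gap was a high level with the control hairpin. CACNA1D, a calcium channel subunit, stood at 16.2 and 19.2 CPM under the control hairpin, at 0.453 and 0.703 CPM under the AXL hairpin, and at 1.46 and 5.06 CPM in plain controls. ADM2, a peptide hormone of the calcitonin family, stood at 13.3 and 13.5, at 0.242 and 0.412, and at 1.03 and 4.51 CPM in the same order. FAM129A, a stress-induced protein, and SMOC1, a secreted matrix protein, had the same order of the groups, with 29.3 and 73.8 against 1.6 and 3.73 CPM and 285 and 198 against 26.3 and 9.48 CPM.

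MUC5B, a gel-forming airway mucin, stood at 508 and 200 CPM under the control hairpin, at 33.0 and 0.8 CPM under the AXL hairpin, and at 50.8 and 32.0 CPM in plain controls. Its neighbour MUC5AC stood at 162 and 91.2, at 17.6 and 5.8, and at 14.2 and 17.4 CPM. AXL shRNA P15 thus stood just above the plain controls for MUC5AC. The MUC5B call (-4.40, SE 1.31, adjusted p = 0.0346) was lost without control shRNA P15 (adjusted p = 0.112), without control shRNA P3 (0.0529) and with the 4 shRNA libraries alone (0.0854), and reads of similar mucin repeats may be split between these genes.

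REST, the transcriptional repressor that keeps neuronal genes silent outside the nervous system, was lower with AXL shRNA, and many neuronal and secretory granule genes were higher. REST (chromosome 4, 56907876 to 56966678, plus strand, GRCh38) went from 50.2 to 21.9 CPM in P15 and from 50.3 to 23.6 CPM in P3. Plain controls held 52.8 and 46.9 CPM and TP-0903 cultures 48.0 and 45.3 CPM, so all 6 other libraries stood at about the same level. The log2 fold change was -1.14 (SE 0.11, adjusted p = 6.26e-04). REST works by recruiting corepressors with histone deacetylase and demethylase activity. Of 13 genes listed as REST and its corepressors after values had been seen, 4 were lower and 4 higher (30.8% each). Over protein-coding genes 20.3% were lower and 20.9% higher, and a list this short does not stand apart from that background. Beside REST, the lower genes of the list were CTDSP2 (log2 fold change -1.41), CTDSPL (-1.12) and RCOR1 (-0.51). The higher ones were KDM1A (0.91), SIN3B (0.89), HDAC2 (0.60) and HDAC1 (0.40). For HDAC2 the plain controls, at 134 and 116 CPM, stood at about the AXL shRNA level of 126 and 131 CPM. The HDAC1 call was lost without AXL shRNA P3 (adjusted p = 0.157), without control shRNA P15 (0.156), with the 4 shRNA libraries alone (0.0756), without the count filter (0.07) and on the TPM scale (0.41).

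A list of 50 neurosecretory and synaptic genes was written after some of their values had been seen, so it describes these libraries and supports nothing on its own. Of its 43 tested members, 30 were higher (protein-coding background 20.9%) and 1 lower (20.3%), and 29 were higher by 2-fold in both cultures (6.72%). The median log2 fold change was 2.31, with median ratios of 1.91 in P15 and 1.75 in P3, beside about 0 over protein-coding genes. The 7 untested members had too few counts. A member near 0 in the other libraries, such as SCG3, could pass the count filter through the AXL shRNA libraries alone. Such a member could only be called higher, so the counts of this list rest in part on the filter.

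The granule proteins rose from near 0 or from moderate levels. CHGA (chromogranin A), a core protein of dense granules, went from 0.707 and 0.688 to 27.9 and 29.5 CPM (5.35, SE 0.31, adjusted p = 2.98e-04). SCG3, which binds chromogranin in the granule, went from 0.0308 and 0.0898 to 22.8 and 28.1 CPM. SCG2, another granin, went from 15.8 and 39.4 to 210 and 538 CPM, and VGF, a neuropeptide precursor, from 1.57 and 0.628 to 32.7 and 35.4 CPM. In contrast SCG5, a chaperone of a prohormone convertase, went from 2.37 and 2.36 to 0.604 and 0.752 CPM and was the list's 1 lower call. The SCG2 call was lost without control shRNA P15 (adjusted p = 0.0573), and so was that of CHGB (0.0605).

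Other members belong to vesicles and synapses. AP3B2, the neuronal subunit of an adaptor complex, went from 0.554 and 0.569 to 35.4 and 33.4 CPM (5.93, SE 0.34, adjusted p = 2.98e-04). RUNDC3A, a neuronal effector of RAP2, went from 0.215 and 0.539 to 38.2 and 35.2 CPM. STX1A (syntaxin 1A), of the fusion machinery, went from 28.6 and 52.0 to 134 and 132 CPM, and UNC13A, which primes vesicles, from 18.1 and 15.1 to 86.6 and 73.1 CPM. Some members with high starting levels were not called. SNAP25 read 51.3 and 51.0 against 61.7 and 64.5 CPM. CPLX2 (complexin 2), at 1870 and 2640 CPM the most abundant member, read 1110 and 859 CPM with AXL shRNA.

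The list also holds cytoskeletal and receptor genes of neurons. INA (internexin), a neuronal intermediate filament, went from 39.6 and 54.0 to 250 and 270 CPM, and NEFL, the light neurofilament, from 6.61 and 7.48 to 16.1 and 35.6 CPM. CHRNB2, a nicotinic acetylcholine receptor subunit, went from 0.769 and 1.26 to 39.5 and 32.9 CPM (5.15, SE 0.33, adjusted p = 3.60e-04). Plain controls held 0.703 and 0.967 CPM of CHRNB2, so the high level was seen with the AXL hairpin alone among the hairpin and plain control libraries.

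**Figure D3:**
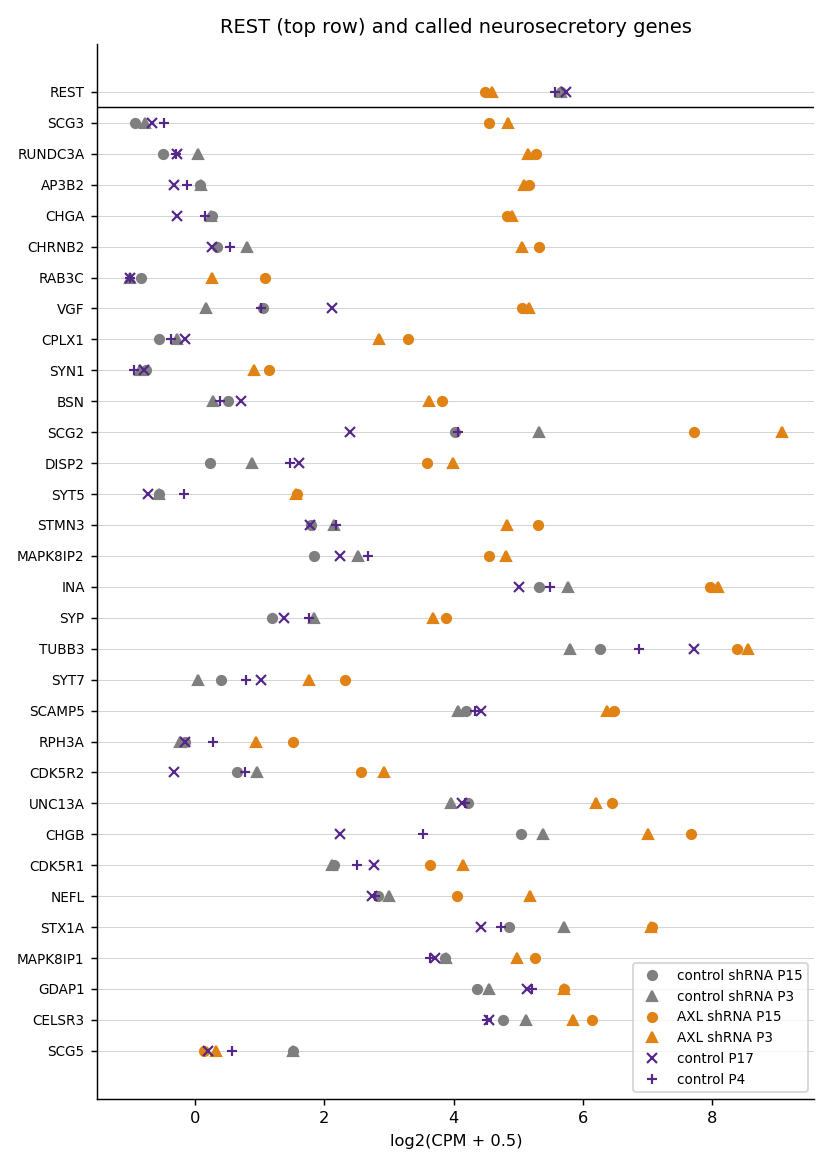
Level of REST and of the 31 called neurosecretory and synaptic genes, of 43 tested, as log2(CPM + 0.5), 1 symbol per library, ordered by log2 fold change. REST is lower with AXL shRNA (orange) than in the 4 control libraries shown, the 30 called rises lie to the right of the control shRNA libraries (grey), and SCG5 in the bottom row lies to their left.

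REST binds a composite element called RE1. Its 14-base core, AGCACCNNGGACAG, was searched on both strands of the RefSeq promoters (GRCh38.p14, 250 bases before to 50 after a start), and 18 of 27305 gene symbols held it (0.0659%). Most RE1 elements lie outside such short windows. Of the 6 with a tested gene, SCAMP5, SYN1 and RPH3A were higher, UCN was lower, and OGDHL and TTC9B were not called, beside 20.3% higher over all 11573 tested genes with a promoter. The 3 higher genes are shown with the core in capitals, at chr15:74995376-74995415 (plus strand) for SCAMP5, chrX:47620061-47620100 (minus strand) for SYN1 and chr12:112791539-112791578 (minus strand) for RPH3A.
SCAMP5: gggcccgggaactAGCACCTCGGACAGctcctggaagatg
SYN1: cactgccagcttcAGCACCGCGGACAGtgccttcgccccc
RPH3A: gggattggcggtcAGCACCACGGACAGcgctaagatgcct
SCAMP5, a membrane protein of secretory vesicles, went from 17.8 and 16.2 to 88.6 and 81.9 CPM (2.33, SE 0.11, adjusted p = 2.82e-04). SYN1 (synapsin 1), which tethers synaptic vesicles, went from 0.0923 and 0.0599 to 1.72 and 1.38 CPM, and RPH3A (rabphilin) from 0.4 and 0.359 to 2.38 and 1.43 CPM. The RPH3A call was lost in 3 of the 4 fits that leave out a library (adjusted p = 0.12, 0.113 and 0.127). A match is a description of the sequence, and binding was not measured.

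Many genes of the zinc finger (ZNF) family were higher with AXL shRNA in some of the runs they form on chromosome 19. Most ZNF genes encode repressors that bind DNA through arrays of zinc fingers and recruit TRIM28 and the histone methyltransferase SETDB1, and their clusters on this chromosome are known to carry the same silencing mark themselves. Of 427 ZNF genes tested, 109 were higher (25.5%) and 73 lower (17.1%), beside 20.9% and 20.3% of protein-coding genes. The family as a whole thus lay near that background, with a median log2 fold change of 0.08. On chromosome 19, 71 of 195 were higher (36.4%) and 21 lower (10.8%), with a median of 0.41. On other chromosomes 38 of 232 were higher (16.4%) and 52 lower (22.4%), with a median of -0.13, and the other 854 protein-coding genes of chromosome 19 had 19.7% higher and 17.4% lower. This split by position was made after the values were seen. On the TPM scale the chromosome 19 genes had 41 higher and 32 lower, beside 2008 higher and 4404 lower of all 17676 genes. Their higher calls were fewer without AXL shRNA P3, without control shRNA P15 or without control shRNA P3, as were those over all genes.

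Runs were defined as at least 8 tested ZNF genes with starts no more than 1 Mb apart, which gave 7 runs on chromosome 19. The third in order, from 19668796 to 21852125, had 8 of 12 genes higher, 7 of them by 2-fold in both cultures, none lower and a median log2 fold change of 2.0, with median ratios of 1.09 in P15 and 1.33 in P3. The sixth, from 51571298 to 53580269, had 15 of 29 higher, 6 of them by 2-fold in both, none lower and a median of 1.27, with the median ratio smaller in P15 (0.52) than in P3 (1.14). Its 3 other protein-coding genes had 1 higher. Both runs held called genes at low levels, so their counts and medians rest in part on few reads. The count filter needs enough reads in only as many libraries as 1 group holds. A gene near 0 elsewhere could thus enter through the AXL shRNA libraries alone, and could then only be called higher. The counts, the lack of lower calls and the medians rest in part on such genes. ZNF253 of the third run went from 0 and 0 to 0.513 and 0.534 CPM, and ZNF888 of the sixth from 0.0308 and 0 to 0.755 and 0.776 CPM. The second had 5 of 12 higher, 0 lower and a median of 0.73, and the seventh 22 of 55 higher, 7 lower and a median of 0.47. On the TPM scale these 2 had 1 and 9 higher. The first, the fourth and the fifth had medians of -0.20, 0.04 and -0.06, so the rise was not shared by all runs. By the same definition, a run on chromosome 16 had 2 of 13 higher and a run on chromosome 7 had 0 of 11 higher. Without control shRNA P15 the third run had 5 higher and the sixth 9, and without AXL shRNA P3 the sixth had 7.

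Smaller groups outside these runs also held rises, seen after the values were known. On chromosome 7, ZNF680, ZNF107, ZNF138, ZNF273, ZNF117 and ZNF92 were all called higher, with log2 fold changes from 1.49 to 2.51. On chromosome 19, ZNF724, ZNF91, ZNF675, ZNF681, ZNF726 and ZNF254, which lie too few together to count as a run, were all called higher as well. The rise was therefore found neither in every run nor in runs alone.

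The family's largest rise among genes of at least 5 CPM was that of ZNF121, which lies in the first run, from 11.5 and 13 to 79.5 and 83.1 CPM (2.74, SE 0.14, adjusted p = 2.82e-04). ZNF92 on chromosome 7 went from 12.7 and 7.57 to 59.0 and 56.6 CPM. In the third run ZNF714 went from 3.81 and 2.66 to 13.5 and 12.6 CPM and ZNF431 from 6.15 and 4.94 to 18.7 and 17.1 CPM. Plain controls held 12.2 and 7.21 CPM of ZNF714, close to the AXL shRNA level, and 9.2 and 8.8 CPM of ZNF431. The sixth run held ZNF841, from 4.64 and 4.55 to 15.6 and 21.4 CPM. The family also had large falls, such as ZNF146 from 339 and 406 to 123 and 104 CPM and ZNF467 from 9.84 and 11.1 to 2.35 and 1.79 CPM. Genes of a run resemble each other, and RSEM shares out reads that fit several of them, so levels of single members are less certain than the direction of a run.

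The silencing genes themselves moved both ways. SETDB1 fell from 39.9 and 46.2 to 21.1 and 19.5 CPM (-1.09, SE 0.12, adjusted p = 0.00108), below plain controls at 35.6 and 34.6 CPM. ATRX, a chromatin remodeler at silenced repeats, fell from 177 and 175 to 121 and 110 CPM. TRIM28 rose from 313 and 363 to 530 and 534 CPM (0.65, SE 0.13, adjusted p = 0.00686). Of 20 genes listed for this silencing after the values were seen, 11 were higher and 3 lower, beside 20.9% and 20.3% of protein-coding genes. The higher ones numbered 7 without AXL shRNA P3, 7 without control shRNA P15 and 3 on the TPM scale, where TRIM28 was not called (0.50, adjusted p = 0.0516). The part of these genes in the change of the ZNF runs was not tested.

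**Figure D4:**
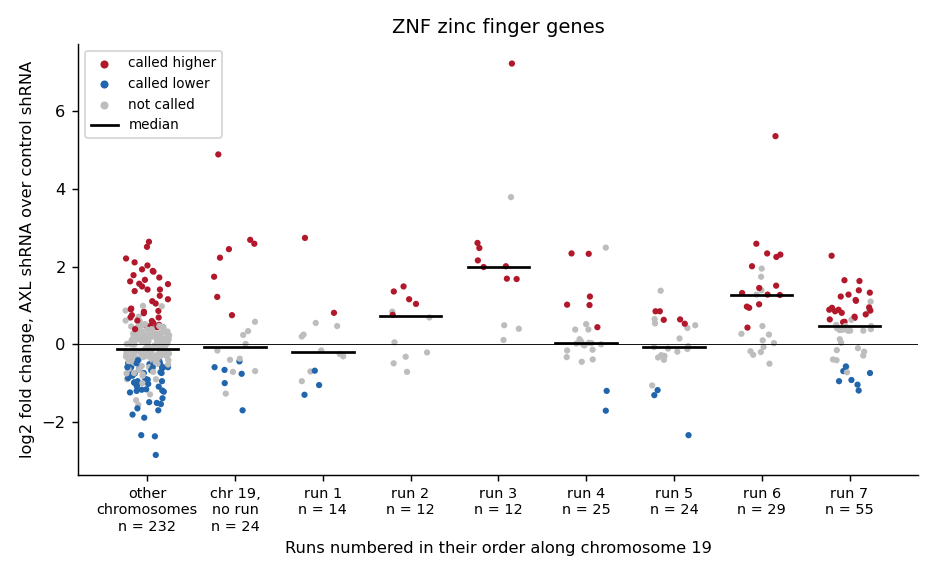
Log2 fold change of the 427 tested ZNF genes, 1 point per gene, by position: other chromosomes, chromosome 19 outside runs, and the 7 runs on chromosome 19 in order. Black bars are medians; the third and sixth runs stand at 2.0 and 1.27 while the first, the fourth and the fifth stand near 0.

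Some genes were read almost only in one group, which was set as at most 0.1 CPM in both libraries of one hairpin and at least 1 CPM in both of the other. With AXL shRNA there were 19 such genes, 18 of them protein-coding, and 7 of the 19 were also at or under 0.1 CPM in all 4 libraries without a hairpin. With control shRNA there were 2. NPPB, the natriuretic peptide B precursor, went from 0.0308 and 0.0299 to 8.91 and 10.4 CPM and was at 0 in both plain controls. CCL15, a chemokine, was at 0 in all 6 other libraries of the series and at 3.05 and 3.59 CPM with AXL shRNA. XKR7, a relative of phospholipid scramblases, reached 5.77 and 7.25 CPM, GABBR2, a GABA receptor subunit, 2.69 and 9.73 CPM, and ADAMTS2, a procollagen protease, 4.02 and 2.89 CPM. On the other side AC138696.1 went from 2.98 and 1.56 to 0.0302 and 0 CPM, a call that was lost in each of the 4 fits that leave out a library (adjusted p from 0.0684 to 0.16). AP001273.2 read 1.05 and 1.32 CPM with control shRNA and 0 with AXL shRNA and was not called.

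Of the families listed outside the usual pathways, 4 had a share of lower members at least 2 times that of all genes. The enzymes that build the glycosylphosphatidylinositol (GPI) anchor, which holds many proteins on the outer cell surface, were the clearest. Of 29 tested, 20 were lower (protein-coding background 20.3%), none higher, and 8 were lower by 2-fold in both cultures (background 6.09%). The median was -0.82, with -0.80 in P15 and -0.81 in P3. PIGO, which adds the ethanolamine phosphate that links to the protein, fell from 86.2 and 83.9 to 23.5 and 23.6 CPM (-1.85, SE 0.10, adjusted p = 2.82e-04). GPAA1, a subunit of the transamidase that attaches the anchor, fell from 138 and 123 to 49.9 and 42.9 CPM (-1.49, SE 0.13). PIGV, a mannosyltransferase, fell from 16.9 and 14.2 to 5.07 and 4.87 CPM, and PGAP3, which remodels the lipid, from 15.8 and 16.0 to 5.77 and 4.46 CPM. The falls covered mannose addition, the transamidase and remodeling, whereas PIGA and PIGQ of the first step (14.3 and 15.9 against 11.5 and 11.3, and 46.3 and 39.1 against 37.2 and 33.4 CPM) were not called.

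Genes of transport within the cilium, together with tetratricopeptide (TTC) genes taken in by symbol, had 34 of 62 lower and 3 higher, with 10 lower by 2-fold in both and a median of -0.63. IFT80, of the complex that carries cargo to the tip, fell from 49.8 and 48.8 to 13.2 and 17.3 CPM (-1.69, SE 0.15, adjusted p = 5.51e-04). TTC30A, another intraflagellar transport gene, fell from 15 and 20.1 to 2.48 and 4.7 CPM. IFT140, IFT81, IFT88 and IFT172 fell too, while BBS7 rose from 13.6 and 15.1 to 25 and 25.6 CPM. The symbol pattern also takes in genes with other known roles, such as TTC19, of the mitochondrial respiratory chain, which fell from 92.2 and 81.8 to 28.3 and 23.6 CPM.

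The ESCRT machinery, which cuts membranes away from the cytosol in sorting and cell division, had 12 of 28 lower, 4 higher and a median of -0.30. CHMP4A, a filament subunit, fell from 48.5 and 54.2 to 13.2 and 12.9 CPM (-1.97, SE 0.12, adjusted p = 3.46e-04), while its paralog CHMP4C rose from 22.2 and 19.5 to 37.5 and 31.1 CPM and CHMP4B was not called. CHMP3 fell from 218 and 251 to 75.4 and 87.0 CPM, CHMP2A from 112 and 114 to 54.1 and 56.8 CPM, and VPS36 from 41.5 and 38.8 to 20.8 and 19.4 CPM. HGS, which starts the sorting of ubiquitinated receptors on endosomes, rose from 103 and 124.3 to 191 and 200 CPM.

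Cohesin, the ring that holds sister chromatids and forms chromatin loops, had 6 of 13 lower and 2 higher. The core subunit SMC1A fell from 148 and 168 to 41.8 and 44.6 CPM (-1.87, SE 0.13, adjusted p = 3.71e-04), and its partner SMC3 read 74.0 and 86.3 against 89.7 and 93.0 CPM, not called. PDS5A fell from 156 and 164 to 96.8 and 100 CPM while PDS5B rose from 27.1 and 27.7 to 46.9 and 42.5 CPM. CTCF, which stops loops at its sites, fell from 86.3 and 85.9 to 57.1 and 52.7 CPM. Without AXL shRNA P3 and with the 4 shRNA libraries alone, 3 members were lower.

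The share of higher members was at least 2 times that of all genes (18.5%) in 12 families. Against 2 times the protein-coding share, the interleukins, connexins, proteoglycans, tubulins and p53 targets pass and the other families do not. Interleukins and their receptors, taken by symbol, had 17 of 34 higher (protein-coding background 20.9%), 2 lower, 11 higher by 2-fold in both (6.72%) and a median of 1.14. Beside IL32 and IL7R, the receptor chain IL6R rose from 12.4 and 14.4 to 105 and 87.3 CPM (2.84, SE 0.15, adjusted p = 2.82e-04) with plain controls at 10.3 and 11.2 CPM. IL20RB rose from 2.98 and 2.33 to 8.85 and 8.83 CPM, IL22RA1 from 0.984 and 0.838 to 8.06 and 7.57 CPM, and the cytokine IL1B from 0.215 and 0.599 to 4.92 and 6.04 CPM. IL11 and IL15 went the other way, from 74.0 and 54.4 to 8.33 and 11.7 CPM and from 20.4 and 10.7 to 6.79 and 3.61 CPM.

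The TNF family had 13 of 34 higher and 3 lower, with 8 higher by 2-fold in both. TNFRSF9 (4-1BB), a costimulatory receptor, rose from 1.41 and 3.53 to 15 and 29.2 CPM (3.16, SE 0.53, adjusted p = 0.00416), and CD40 from 4.24 and 4.43 to 15.8 and 17.6 CPM. The TRAIL receptors TNFRSF10A and TNFRSF10D rose from 26.8 and 38.7 to 81.7 and 86.8 CPM and from 88.6 and 108 to 205 and 219 CPM. The ligand TNFSF15 fell from 136 and 62.5 to 48.8 and 16.9 CPM.

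Targets of p53, the tumor suppressor that is wild type in A549, had 13 of 30 higher and 3 lower, with medians of 0.66 in P15 and 0.19 in P3. BTG2, which slows growth, rose from 11.8 and 13.1 to 64.2 and 61.5 CPM (2.33, SE 0.15, adjusted p = 3.60e-04), and the stress sensor SESN1 from 13.6 and 18.5 to 76.0 and 57.7 CPM. Classical targets split: CDKN1A (p21) rose from 309 and 440 to 979 and 830 CPM and MDM2 from 173 and 257 to 385 and 346 CPM, whereas BAX (137 and 187 against 178 and 167 CPM), RPS27L and ZMAT3 were not called. The count was 8 without AXL shRNA P15 and 8 without control shRNA P15.

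Tubulins and their cofactors had 12 of 28 higher and 2 lower. TUBB3, the neuronal beta tubulin, rose from 75.9 and 55.3 to 332 and 375 CPM (2.43, SE 0.35, adjusted p = 0.00223), with plain controls at 210 and 116 CPM between the hairpin groups. STMN3, a neuronal stathmin that takes up tubulin, rose from 2.98 and 3.95 to 39.1 and 27.8 CPM, and TUBB2A from 16.3 and 15.9 to 43.1 and 64.4 CPM. The common TUBB and TUBA1B (664 and 559 against 720 and 767, and 459 and 539 against 626 and 704 CPM) were not called. Centrosomal tubulins differed: TUBD1 rose from 8.79 and 10.5 to 24.2 and 27.6 CPM and TUBE1 fell from 12.3 and 16.5 to 4.44 and 4.1 CPM. Plain controls held 20.9 and 17.9 CPM of TUBD1, between the hairpin groups.

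Annexins, which bind membranes with calcium, had 5 of 12 higher and none lower. ANXA1, an anti-inflammatory mediator, rose from 679 and 622 to 4200 and 3280 CPM (2.52, SE 0.17, adjusted p = 3.71e-04). ANXA5 rose from 302 and 250 to 855 and 887 CPM, and ANXA2 from 2040 and 1860 to 3540 and 3590 CPM, beside plain controls at 3210 and 2860 CPM. The ANXA1 level was also above its plain controls, 1280 and 1090 CPM.

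Proteoglycan cores had 8 of 19 higher and 3 lower. The syndecan SDC4, a heparan sulfate coreceptor, rose from 45.7 and 47.7 to 197 and 246 CPM (2.24, SE 0.32, adjusted p = 0.00218), and HSPG2 (perlecan), of basement membranes, from 275 and 203 to 822 and 597 CPM. SDC3 fell from 36.9 and 40.2 to 14.6 and 19.2 CPM, and SDC1 (205 and 288 against 218 and 325 CPM) was not called. SPOCK1 reached 13.6 CPM in P15 and 76.5 CPM in P3 from 5.01 and 6.49 CPM, and SRGN rose from 38.5 and 48.9 to 69.1 and 111 CPM. The count was 4 without control shRNA P15, 4 without control shRNA P3 and 4 on the TPM scale, and the calls of SPOCK1 and SRGN were lost without either control library (adjusted p from 0.0656 to 0.173), SRGN also without AXL shRNA P3 (0.201).

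Connexins and pannexins, the channel proteins of gap junctions and their relatives, had 7 of 12 higher and none lower. GJA1 (connexin 43) rose from 171 and 162 to 298 and 290 CPM (0.82, SE 0.17, adjusted p = 0.0101), with 81.3 and 113 CPM in plain controls. Its call was lost without control shRNA P3, where the log2 fold change was 0.78. GJC1 rose from 18.5 and 24.2 to 43.8 and 62.2 CPM, below or near its plain controls at 62.4 and 46.1 CPM. PANX1 read 17 and 14.6 against 23.3 and 25 CPM (adjusted p = 0.0327). The count was 3 without AXL shRNA P15, 4 without AXL shRNA P3, 4 without control shRNA P15 and 2 without control shRNA P3, and PANX1 was called in none of those 4 fits.

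Chloride channels had 10 of 26 higher and 6 lower, and the split followed subfamily in part. The plasma membrane channel CLCN2 rose from 4.18 and 4.34 to 11.5 and 9.48 CPM (1.30, SE 0.19, adjusted p = 0.0026) and CLIC1 from 142 and 164 to 290 and 291 CPM. The endosomal exchangers CLCN3, CLCN4, CLCN5 and CLCN6 were all lower, CLCN3 from 105 and 113 to 37.1 and 36 CPM. Subunits of the volume-regulated channel, LRRC8A (100 and 75.7 against 165 and 138 CPM) and LRRC8E (9.9 and 8.71 against 16.1 and 13.6 CPM), were called higher and LRRC8D lower (101 and 100 against 56.8 and 57.5 CPM). Higher members numbered 4 without AXL shRNA P15, 6 without AXL shRNA P3, 5 without either control library and 6 on the TPM scale, and LRRC8E lost its call in all 4 fits without a library. LRRC8A lost its call without AXL shRNA P15 (adjusted p = 0.0975), without control shRNA P3 (0.112) and on the TPM scale (0.114).

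Lipid droplet proteins and lipases had 9 of 23 higher and 5 lower, 7 and 4 of them by 2-fold in both. LIPG, a secreted phospholipase, rose from 2.03 and 1.98 to 16.9 and 22.2 CPM (3.29, SE 0.33, adjusted p = 6.87e-04), and PLIN3, a droplet coat protein, from 58.8 and 53.7 to 165 and 182 CPM. ABHD5, the activator of the droplet lipase, rose from 7.29 and 7.54 to 18.9 and 23 CPM, and LIPA, the lysosomal lipase, from 124.3 and 113 to 206 and 195 CPM. BSCL2 (seipin), which shapes forming droplets, fell from 64.6 and 50.1 to 10.8 and 8.9 CPM (-2.54), and PLIN2 (27.0 and 35 against 28.6 and 32.2 CPM) was not called.

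The coats of early secretory vesicles had 9 of 24 higher and 4 lower. SEC24A and SEC23A, of the COPII coat that leaves the endoplasmic reticulum, rose from 47.0 and 37.0 to 108 and 100 CPM and from 197 and 157 to 380 and 340 CPM (1.02, SE 0.14, adjusted p = 0.00182). COPA, of the COPI coat, rose from 205 and 177 to 337 and 328 CPM, and TFG, which organizes exit sites, from 170 and 160 to 273 and 261 CPM. COPG2 fell from 36.7 and 35.1 to 21.4 and 19.0 CPM while its paralog COPG1 (124.1 and 102 against 129 and 118 CPM) was not called.

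Importins and exportins, which carry proteins and RNA through nuclear pores, had 11 of 29 higher and 4 lower. RANGAP1, which ends the RAN cycle in the cytosol, rose from 66.1 and 71.4 to 205 and 189 CPM (1.52, SE 0.18, adjusted p = 0.00122). KPNA2 and CSE1L rose from 127 and 135 to 267 and 320 CPM and from 132 and 127 to 273 and 235 CPM, but plain controls held 662 and 429 CPM of KPNA2 and 349 and 257 CPM of CSE1L, about as much or more. XPO6 rose from 69.1 and 67.6 to 135 and 138 CPM, and XPOT, the exporter of transfer RNA, fell from 425 and 635 to 175 and 191 CPM. Plain controls held 141 and 109 CPM of RANGAP1 and 117 and 94.9 CPM of XPO6, between the hairpin groups. Higher members numbered 7 without either AXL shRNA library, 6 without control shRNA P15 and 7 on the TPM scale.

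Histone deacetylases and sirtuins had 7 of 18 higher and 5 lower, with a median of -0.21. HDAC9, known from muscle and immune cells, rose from 1.17 and 0.479 to 13.6 and 7.74 CPM (3.69, SE 0.57, adjusted p = 0.00312), and HDAC4 and HDAC6 fell from 22.5 and 35.4 to 5.86 and 11.5 CPM and from 52.4 and 60.8 to 22.2 and 30 CPM. HDAC3 rose from 33.5 and 30.7 to 57.6 and 55.9 CPM, HDAC2 from 85.1 and 84.7 to 126 and 131 CPM, and HDAC10 from 8.18 and 12.1 to 14.8 and 18.7 CPM (adjusted p = 0.0486). Plain controls held 134 and 116 CPM of HDAC2, about the AXL shRNA level. The HDAC10 call was lost with the 4 shRNA libraries alone (adjusted p = 0.0915) and on the TPM scale (0.122). Its log2 fold change was 0.72, with 0.55 without AXL shRNA P3 and 0.46 without control shRNA P15. Higher members numbered 4 without AXL shRNA P15, 3 without AXL shRNA P3, 3 without control shRNA P15, 4 with the 4 shRNA libraries alone and 3 on the TPM scale.

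**Figure D5:**
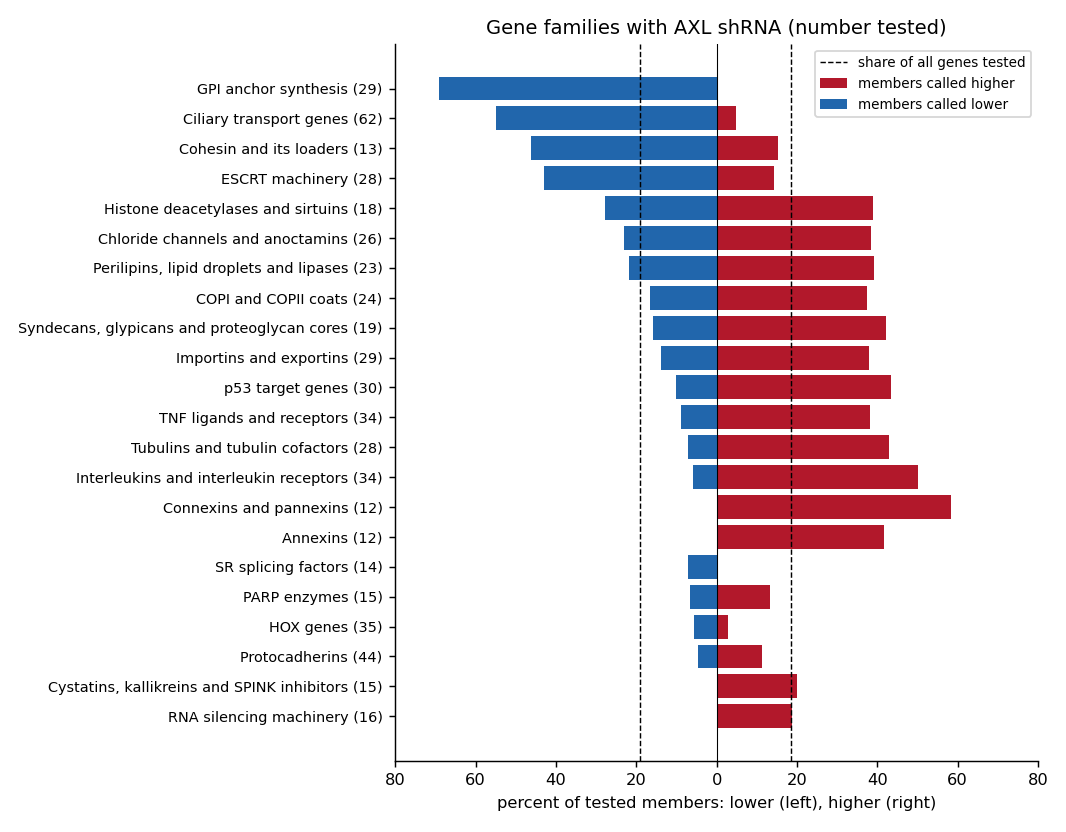
Percent of tested members called lower (blue, left) and higher (red, right) with AXL shRNA, for the 4 families with many lower, the 12 with many higher and the 6 with the fewest calls; dashed lines mark the 19.0% and 18.5% of all genes tested. GPI anchor synthesis reaches 69.0% lower with none higher.

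The families with the fewest calls come next, and few calls do not show that their members did not change. They were ranked by calls in either direction, which took 37.5% of all genes (18.5% higher and 19.0% lower). Of 14 SR splicing factors, which bind exons, 1 was lower (SRSF8, 36.4 and 36.9 against 21.0 and 17 CPM) and none higher, although on the TPM scale 7 were lower. SRSF1, for one, read 225 and 248 against 252 and 228 CPM. Of 35 HOX genes, which set position along the body, HOXB9 was lower (25.1 and 23 against 7.52 and 8.37 CPM), as was HOXD8. HOXA5 was higher. On the TPM scale 8 HOX genes were lower, beside 4404 of all 17676 genes. Protocadherins had 5 of 44 higher and 2 lower, and PCDH1 stood out at 4.58 and 5.57 against 26.1 and 21.7 CPM. The RNA silencing machinery, through which a hairpin acts, had 3 of 16 higher (18.8%, close to the 18.5% of all genes) and none lower. With the P number as a block 4 were higher and 2 lower, and on the TPM scale 3 were lower. Fewer were higher without either AXL shRNA library or without control shRNA P15. Its AGO2 read 80.4 and 85.1 against 103 and 103 CPM (not called), DICER1 60.5 and 64.6 against 86.3 and 82.5 CPM (called higher) and TNRC6A 58.3 and 65.2 against 185 and 182 CPM (called higher). PARP enzymes had 2 of 15 higher and 1 lower, and the cystatin, kallikrein and SPINK group, of secreted proteases and their inhibitors, 3 of 15 higher and none lower. In that group CST1 read 69.9 and 10.2 against 404 and 206 CPM, with the control cultures far apart. With the P number as a block this group had 8 of 15 higher and 3 lower, so its few calls did not hold in that fit. PARP enzymes had 5 of 15 higher and 3 lower there, and protocadherins 11 of 44 and 3. The block fit called 25.6% of all genes higher and 26.1% lower.

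Long non-coding genes included both large falls and large rises. Of 2234 tested, 178 were higher (7.97%, beside 18.5% of all genes) and 327 lower (14.6%, beside 19.0%). The most abundant of those named was NORAD, a cytoplasmic RNA that binds PUMILIO proteins, which fell from 552 and 467 to 115 and 92.2 CPM (-2.30, SE 0.15, adjusted p = 3.67e-04) with plain controls at 285 and 267 CPM. CRNDE fell from 12.2 and 10.9 to 1.84 and 1.65 CPM and LINC01963 from 14.5 and 21.8 to 1.96 and 2.52 CPM. MEG3, an imprinted RNA linked to growth arrest, rose from 29.7 and 63.5 to 208 and 356 CPM (2.60, SE 0.39, adjusted p = 0.00282), and LINC00665, on chromosome 19, from 0.338 and 0.838 to 6.79 and 10.3 CPM. TMEM51-AS1 rose from 1.05 and 1.08 to 7.03 and 8.25 CPM, but antisense genes cannot be told from their partners without strand. TGFB2-OT1, which overlaps the end of TGFB2, read 7.13 and 5.66 against 0.543 and 0 CPM, a call lost without AXL shRNA P3 or either control library (adjusted p from 0.0761 to 0.114).

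By sheer level, the rise was carried by keratins, reductases and mitochondrial RNA. KRT8 rose from 3100 and 2630 to 12200 and 9770 CPM and its partner KRT18 from 2270 and 1950 to 7810 and 6620 CPM. The aldose reductase AKR1B1 rose from 1410 and 1430 to 5300 and 6090 CPM (2.0, SE 0.16, adjusted p = 4.02e-04). Its paralog AKR1B10 read 3330 and 3750 against 9140 and 8550 CPM (adjusted p = 0.034), a call lost in each fit that leaves out a library (0.0863 to 0.139). MT-RNR2, the large mitochondrial ribosomal RNA, rose from 5000 and 6280 to 17400 and 18700 CPM and MT-CO1 from 7950 and 9730 to 17600 and 18400 CPM.

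The largest losses by level were in adhesion, redox and translation genes. ITGB1, the shared beta chain of many integrins, fell from 3530 and 3290 to 1610 and 1660 CPM (-1.06, SE 0.14, adjusted p = 0.00155). TXNRD1, thioredoxin reductase, fell from 2020 and 2530 to 558 and 827 CPM while NQO1, another gene of the KEAP1-mutant program, read 1420 and 1410 against 1240 and 1290 CPM and was not called. IGFBP4, which binds insulin-like growth factors, fell from 1820 and 1820 to 723 and 742 CPM, and RPSA, a ribosomal protein, from 1200 and 1370 to 550 and 546 CPM. EEF1A1, the elongation factor, read 7880 and 9250 against 6330 and 5350 CPM (-0.55, adjusted p = 0.0433), a call lost in each fit that leaves out a library (0.0566 to 0.196) and with another scaling (0.0513).

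Some genes changed in 1 culture and not in the other, and none of those named here was called. At a mean of 5 CPM or more, 534 genes passed 2-fold in P15 only and 598 in P3 only. In P15, TRIML2 went from 20.4 to 64.0 CPM, and in P3 it read 37.1 against 43.9 CPM. ITGA11, a collagen receptor chain, went from 55.9 to 19.7 CPM in P15 and read 29.3 against 34.4 CPM in P3. In P3, the growth factor IGF2 went from 5.96 to 34.2 CPM and in P15 it read 6.77 against 6.01 CPM. EPHA4, an ephrin receptor, went from 2.21 to 11.2 CPM in P3 and read 20.6 against 18.5 CPM in P15. For EPHA4 the control cultures differed more than the hairpins did, and P3 with AXL shRNA moved toward the P15 level.

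A short sequence was found more often in the 3' UTRs of genes that fell than in those of genes that rose, though most genes that fell lack it. Among 43601 words of 8 bases that occur in the 3' UTRs of at least 100 of 10605 genes, ATGAAGGA had the lowest mean log2 fold change (-0.40 over 498 genes), and the word shifted by 1 base, TGAAGGAA, came next (-0.39 over 748 genes). The word was chosen on these values, so what follows is a description. It was held by 81 of the 718 searched genes that were lower by 2-fold in both cultures (11.3%), by 10 of the 654 that were higher (1.53%) and by 4.7% of all. The median log2 fold change with the word was -0.42, and it was close in both cultures (-0.42 in P15 and -0.36 in P3). Without the word it was 0.0. When genes with a 7-base part of the word were counted as well, the difference of the medians was -0.21. Genes with the word had longer 3' UTRs (median 3198 against 1148 bases), and among the longest 25% of UTRs the medians were -0.40 with and -0.07 without it. The AXL 3' UTR used here does not hold the word. Coding sequences, that of AXL included, were not searched, so whether AXL holds the word elsewhere was not examined.

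The 4 called genes with the word that fell most in both cultures, and REST, are shown with the word in capitals, to let its surroundings be compared. The sites lie at chr15:87863017-87863044 (minus strand) for NTRK3, chr12:20681470-20681497 (plus) for PDE3A, chr2:159771585-159771612 (minus) for CD302, chr15:44413534-44413561 (plus) for CASC4 and chr4:56934425-56934452 (plus) for REST, in GRCh38.
NTRK3: aaacccctaaATGAAGGActgcttatac
PDE3A: atagcaagagATGAAGGAgaatatttca
CD302: tgtcacttgaATGAAGGAaagcttaaag
CASC4: aaaaactttaATGAAGGAatgtacccat
REST: aaacaaaaacATGAAGGAaattaaaacc
Their log2 ratios in P15 and P3 were -3.36 and -3.46 for NTRK3, -2.92 and -2.74 for PDE3A, -2.62 and -2.71 for CD302, -3.01 and -2.50 for CASC4, and -1.17 and -1.07 for REST. The stretches on either side differ from gene to gene, but the nearest bases are partly shared. The base after the word is A in CD302, CASC4 and REST, and the base before it is A in NTRK3, CD302 and CASC4. Whether the hairpin pairs with these sites was not tested.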

How the data were processed

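Total RNA of A549 cultures was made into Nextera XT libraries, per the labels' protocols. Per the submitters' processing notes, STAR 2.5.3a, RSEM and GRCh38 were used; no source used here gives their settings. The authors deposited RSEM expected counts and TPM for 58302 genes per library. Of these, 58039 matched GENCODE release 29 by ID, and 17676 passed edgeR's filter. Expected counts were rounded. The test was edgeR 4.0.16 (R 4.3.3), quasi-likelihood, on all 8 libraries with 1 term per group and TMM scaling, two-sided, with Benjamini-Hochberg adjustment over all tested genes and a threshold of 0.05. The code was tested on simulated data. The biological coefficient of variation was 21.5%. CPM values are per library, n = 2 per group. Libraries of the same P number deviated together from their group means (r = 0.444 for the hairpin and 0.450 for the drug libraries), so a fit with the number as a block was an alternative. Others were RLE scaling, no count filter, DESeq2 1.42.0, limma-voom and limma (3.58.1) on log2(TPM + 1), the 4 shRNA libraries alone, and each library left out.

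Named genes had a mean of at least 5 CPM: AXL, then the 12 largest rises and falls by the smaller within-culture ratio. Families with at least 8 tested and 5 called members were described when their share called was at least 2 times that of all genes, with 4 members named by the same ratio, as were the 6 families of at least 12 tested members with the fewest calls. Long non-coding genes needed 2 CPM. The 8 largest changes in CPM were also taken, of which some are printed. The members and lists were chosen with earlier results of these data known, and other family members, the ZNF runs, REST and the neurosecretory and silencing lists were named after their values were seen. Of the marker lists, 1 of 9 genes of the KEAP1-mutant program was higher (AKR1B10) and 1 lower (TXNRD1). Each SE comes from the quasi-likelihood fit, which takes in the spread between libraries. Some list members are not reported here.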

Additional observations from a re-analysis of the deposited data

Results flagged for a closer look

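Some genes went opposite ways in the 2 cultures, given here as log2 ratios of CPM + 0.5 between the hairpins. Each pair has 1 library a side, so the difference between the cultures was not tested, and none of these genes was called. TPPP3, a tubulin-binding protein, had 2.04 in P15 (9.44 against 40.5 CPM) and -0.65 in P3 (8.8 against 5.43 CPM). RNF43, which removes WNT receptors, had 0.68 in P15 and -1.38 in P3, where it went from 47.5 to 17.9 CPM. TCN1, a vitamin B12 carrier, had -0.98 in P15 and 1.05 in P3, but stood at 35.8 CPM in control shRNA P15 and 1.11 CPM in control shRNA P3. CD82, a tetraspanin, had -0.68 and 0.80, with the hairpin libraries at 8.72 and 10.6 CPM and the controls at 14.3 and 5.9 CPM. EMP2, a membrane protein of epithelium, had -0.63 and 0.67. LTBP2, a matrix protein, had -0.59 and 0.99, from 64.6 to 42.7 CPM in P15 and from 31.0 to 62.1 CPM in P3. No gene with a mean of at least 5 CPM passed 2-fold in opposite directions, and 3 of all tested genes did.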

How the results depend on the processing

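The count of 6627 called genes ran from 4408 (without control shRNA P15) to 4797 when 1 library was left out, and was 9138 with the P number as a block (4523 higher, 4615 lower). On log2(TPM + 1) it split into 2008 higher and 4404 lower. Counts of family members under these alternatives are to be read beside these totals, since calls over all genes changed as well. The 2056 genes changed 2-fold in both cultures became 4572 at 1.5-fold and 295 at 4-fold, and 2195 with the block. This count has no value without a library, since a culture then has no ratio. AXL passed the threshold without the count filter (-0.95), with the block (-0.89) and with the 4 shRNA libraries alone (-0.92), and without 1 library ran from -1.25 to -0.53 (adjusted p from 0.0973 to 0.445). Of 162 named called genes, 131 kept direction and call under every alternative in which they had a value, 31 lost the call in some, 28 of these without 1 library, and 1 reversed: ATF7IP2, of the silencing list, at -0.0 on TPM (adjusted p = 0.995). The 3' UTR medians also moved when 7-base parts of the word were counted. Leaving out a library leaves 1 sample in that group, which is assumed to vary like the others. Depth limits calls among genes under about 0.1 CPM, the level of 3 counts.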
